A study of Homo sapiens with 12 samples.

Results

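The 42 genes described here encode proteins of the G2/M transition, the mitotic spindle and the kinetochore. They were taken by name from a list of members, with no threshold on measured values, as rows of the deposited gene table on chromosomes 1 to 22 or X. All 42 names were found, each in 1 row, among the 60675 genes of the table. All 42 also passed the filter on low counts, as did 15112 genes in all, and the lowest count of any of the 42 in any library was 130.

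The cells were U-2932, a human B cell lymphoma line, described by the submitters as diffuse large B cell lymphoma and made to express Roquin2 stably. The groups were Y691F with IgM, Y691F untreated, WT with IgM and WT untreated, with 3 libraries in each and 12 in all. Y691F cells expressed Roquin2 with the Y691F substitution, and WT cells expressed wild-type Roquin2, so that every group carried an introduced form. The IgM groups were given F(ab')2-IgM, an agent used to stimulate the receptor of B cells, at a dose of 10 µg/ml, and were taken after 12 h. The labels name neither the promoter of the construct, nor the number of clones behind each line, nor the state of the endogenous gene. The form of Roquin2 and any other difference between the stable lines cannot be told apart. The 5 B cell markers MS4A1, CD79A, CD79B, PAX5 and CD22 summed to between 2008 and 3417 CPM, counts scaled to library size, in each library. The 4 T cell markers, the 4 myeloid markers and the 3 fibroblast markers summed to at most 0.429, 1.49 and 3.39 CPM, with CD3D and CD2 at 0 in every library.

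Entry into mitosis is driven by CDK1 bound to cyclin A or cyclin B, which CDC25 phosphatases activate and the WEE1 and PKMYT1 kinases restrain. The Aurora and Polo kinases, the chromosomal passenger complex and the kinesins then build the spindle, and the kinetochore ties chromosomes to it. The spindle checkpoint holds back the anaphase-promoting complex (APC/C) until every chromosome is attached, after which CDC20 activates the APC/C and separase opens the sister chromatids. Most of these genes are transcribed late in the cell cycle, when the MuvB core joins B-MYB (MYBL2) and FOXM1 at a promoter element called the cell cycle genes homology region (CHR). In resting cells, the same core sits in the DREAM complex and represses them.

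The CHR core, TTTGAA, was looked for on both strands of the RefSeq promoters (GRCh38.p14), each of which spans 250 bases before and 50 bases after a start site. Promoters were present for 36 of the 42 genes. The letters were found for 25 of these genes (69.4%), in 28 of their 46 promoters (60.9%), against 15.2% of all 35116 promoters. The CCAAT box, the usual companion of the CHR and bound by NF-Y, was found for 29 of the 36 genes, in 73.9% of their promoters against 34.6% of all. Matches of the motifs can share a base where they adjoin, and the base composition of the promoters was not matched. In 16 genes the core nearest to the start lay wholly within the last 60 bases before it, a window chosen after the positions were seen. Of all promoters, 2.71% held the core in that window, against 34.8% of the promoters of these genes. A match is a description of letters and not a binding site.

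The stretches shown next hold the core, in capitals, of 5 genes picked by rule, namely those with the core among 8 core regulators and marks (PLK1, AURKA, CCNB1, CDK1, MKI67, TOP2A, FOXM1 and MYBL2) and the 4 genes with the largest IgM response in either line (ANLN, BIRC5, CDC25B and NEK2, whose largest changes were all in WT). CENPA and CDC20 were added after their values were seen, because both hold the core and were among the few called higher with IgM. Each is written 5′ to 3′ along the gene, and the position is that of the first capital relative to the RefSeq start.
PLK1 (chr16:23678848-23678877, plus strand, position -29): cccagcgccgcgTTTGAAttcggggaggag
CDK1 (chr10:60778453-60778482, plus strand, position -13): tagcgcggtgagTTTGAAactgctcgcact
MKI67 (chr10:128126435-128126464, minus strand, position -29): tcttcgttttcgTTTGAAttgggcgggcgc
TOP2A (chr17:40418030-40418059, minus strand, position -151): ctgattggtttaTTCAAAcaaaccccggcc
ANLN (chr7:36389830-36389859, plus strand, position -20): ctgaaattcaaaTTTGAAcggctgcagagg
CENPA (chr2:26786026-26786055, plus strand, position -18): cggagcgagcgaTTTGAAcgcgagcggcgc
CDC20 (chr1:43358904-43358933, plus strand, position -65): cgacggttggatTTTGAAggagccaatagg
In TOP2A the core stands on the other strand, and it lies far from the start, whereas in PLK1, CDK1, MKI67, ANLN and CENPA it lies close before it. Directly before its capitals, the ANLN stretch holds a further match on the other strand, left in lower case. In the CDC20 stretch a CCAAT box follows the core, and in that of MKI67 the last base of the core is also the first of a CCAAT box on the other strand. The TOP2A stretch also holds a CCAAT box on the other strand, before the capitals. CCNB1, MYBL2, CDC25B and NEK2 had promoters without the core, and AURKA, FOXM1 and BIRC5 had no promoter in the table.

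The library totals ran from 16465393 to 21478790 counts. Levels are CPM scaled by TMM, a method that sets libraries level on the bulk of their genes, and a mean is given with its SD over the 3 libraries of a group. Changes are on the log2 scale with their standard error (SE), and the threshold for a call was an adjusted p of 0.05 in the quasi-likelihood test of edgeR over all 15112 tested genes. With library totals in place of TMM, the median change of all genes moved to -0.18 for IgM in Y691F and to -0.13 for IgM in WT, against -0.011 and 0.0016 with TMM. Every IgM response given here is relative to the TMM scaling. The libraries are bulk RNA, so fewer cells in mitosis and less mRNA per cell cannot be told apart.

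By length-corrected level, the deposited RPKM values, the genes spanned a wide range. In untreated WT cells MYBL2 stood highest at 246 ± 2.33 RPKM, followed by CDC20 (117 ± 1.64 RPKM). PTTG1 (78.4 ± 2.53 RPKM) and UBE2C (77.2 ± 2.22 RPKM) came next and did not differ beyond their spread. The lowest were CENPE (4.43 ± 0.485 RPKM) and CDC25C (3.72 ± 0.225 RPKM), and CDK1 itself stood at 11.1 ± 0.424 RPKM. In Y691F cells with IgM, MYBL2 was at 146 ± 4.01 RPKM and again the highest, while ANLN, at 2.06 ± 0.0645 RPKM, was the lowest.

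After 12 h of IgM, mRNA of the G2/M genes was lower as a group in both lines, with few exceptions. The levels of all 42 genes summed to 5057, 4966 and 5221 CPM in Y691F with IgM, against 6314, 6504 and 6459 CPM in Y691F untreated. In WT the sum was 4872, 4958 and 4939 CPM with IgM, against 6615, 6707 and 6641 CPM untreated. All 3 IgM libraries of either line lay below all 3 untreated ones, and the mean sum was 20.9% lower with IgM in Y691F and 26.0% lower in WT. The mean sum in Y691F was 3.22% above that in WT with IgM and 3.44% below it untreated. These sums were not tested.

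**Figure D1:**
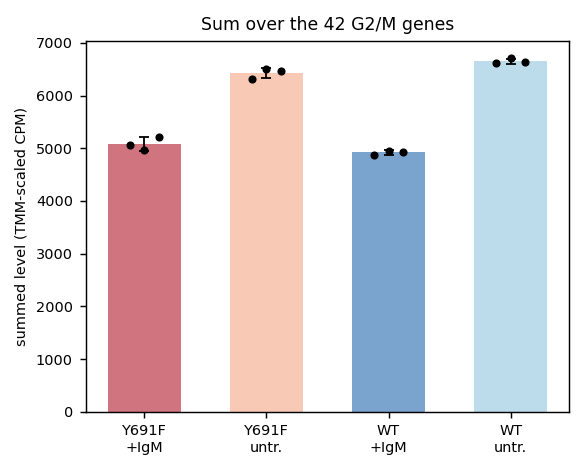
Summed level of the 42 genes in TMM-scaled CPM for each library (points), with the group mean (bar) and SD (error bar, n = 3), for Y691F and WT with and without IgM. The IgM groups (means 5081 in Y691F and 4923 in WT) lie below the untreated groups (means 6426 in Y691F and 6654 in WT).

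In Y691F with IgM, 31 of the 42 genes fell, 3 rose and 8 were not called, against 38.7% of all tested genes called lower, 37.1% called higher and 75.8% called in either direction. In WT with IgM, 35 fell, 3 rose and 4 were not called, against 38.5% of all tested genes called lower, 38.4% called higher and 76.9% called in either direction. The median change over the 42 genes was -0.33 in Y691F and -0.39 in WT, beside medians of -0.011 and 0.0016 over all tested genes. With library totals, 39 fell and 2 rose in Y691F, and 39 fell and 1 rose in WT. Without replicate 3 of Y691F untreated, 5 rose in Y691F. In all, 30 genes were called lower in both lines and 2, CCNB1 and CENPA, higher in both. The lines have separate untreated libraries, and over the 42 genes the changes of the lines correlated with r = 0.93, a description over genes that share their libraries. Of the 42 genes, only ANLN, BIRC5 and NEK2 in Y691F, and these with CDC25B and CDCA8 in WT, fell by more than 2-fold.

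**Figure D2:**
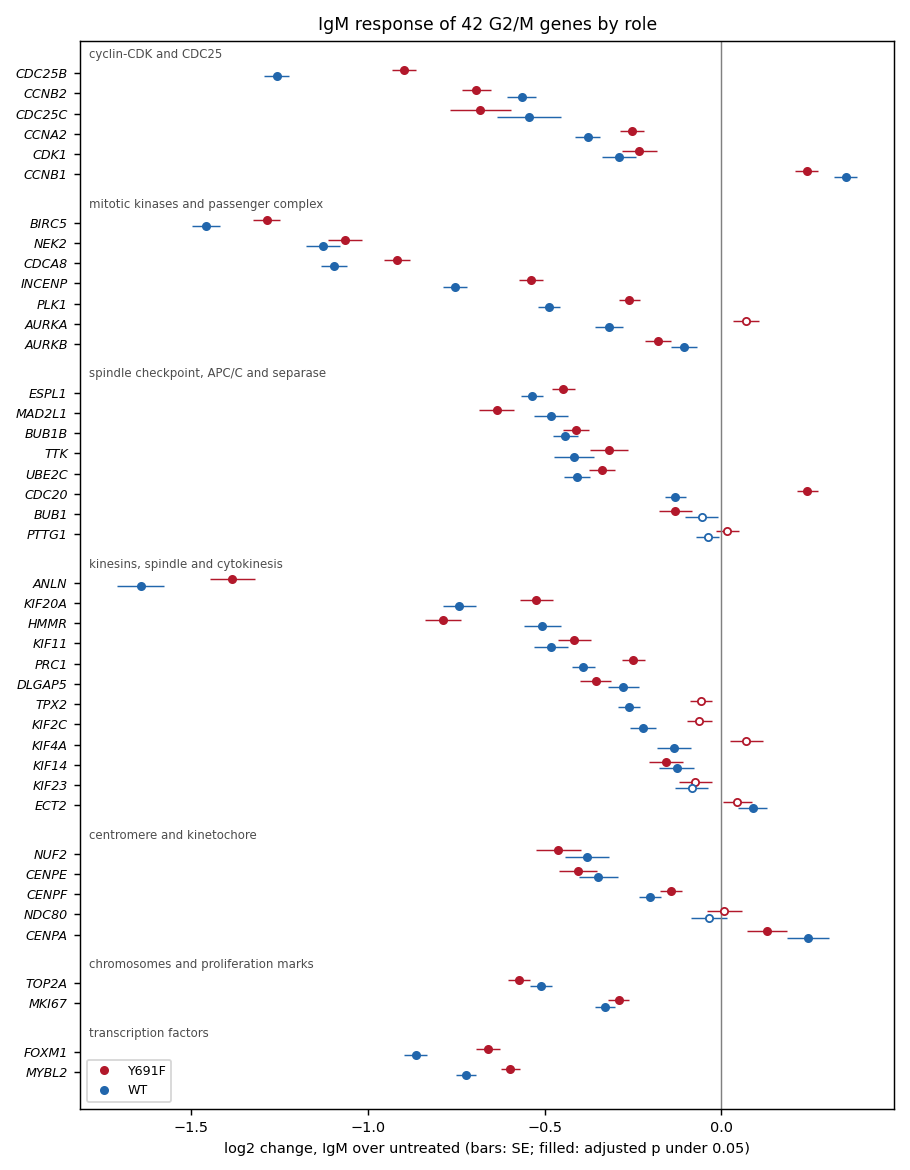
Log2 change with IgM over untreated for each of the 42 genes, ordered by role, in Y691F (red) and WT (blue). Points are fitted changes, bars their SE, and filled points passed an adjusted p of 0.05. Most points lie left of 0, with ANLN and BIRC5 farthest, and CCNB1 and CENPA lie right of 0 in both lines.

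Of the cyclin-CDK and CDC25 genes, 5 of 6 fell in Y691F and 5 of 6 in WT, and CCNB1 was the gene that rose in both. CDK1, the mitotic kinase (ENSG00000170312, chromosome 10, 60778331 to 60794852, plus strand), had 38.9, 40.98 and 40.8 CPM in Y691F with IgM, against 45.2, 47.02 and 49.6 CPM in Y691F untreated. In WT, CDK1 had 41.3, 40.9 and 43.6 CPM with IgM, against 49.4, 52.2 and 51.98 CPM untreated. The IgM libraries were the lower ones in either line, by a small amount (Y691F log2 -0.23, SE 0.049, adjusted p = 1.76e-05, WT log2 -0.29, SE 0.049, adjusted p = 1.28e-07). CCNB1, which encodes cyclin B1 (ENSG00000134057, chromosome 5, 69167010 to 69178245, plus strand), had 183, 184 and 189.9 CPM in Y691F with IgM, against 157, 155 and 159 CPM in Y691F untreated. In WT, CCNB1 had 186, 183 and 186 CPM with IgM, against 147, 148 and 139.6 CPM untreated. All IgM libraries lay above the untreated ones, and CCNB1 rose 1.18-fold in Y691F (log2 0.24, SE 0.032, adjusted p = 1.81e-10) and 1.28-fold in WT (log2 0.35, SE 0.032, adjusted p = 6.95e-17). CCNB2, which encodes cyclin B2, fell (-0.69 in Y691F, -0.56 in WT), so the B cyclin mRNAs moved in opposite directions. CCNA2, the gene of cyclin A2, fell by less (-0.25 in Y691F, -0.38 in WT). CDC25B, a phosphatase that activates CDK1 (ENSG00000101224, chromosome 20, 3786772 to 3806121, plus strand), had 137, 134 and 132 CPM in Y691F with IgM, against 248, 261 and 244 CPM in Y691F untreated. In WT, CDC25B had 91.1, 93.2 and 95.5 CPM with IgM, against 229, 225 and 216 CPM untreated. The groups were far apart, and CDC25B was 1.86-fold lower with IgM in Y691F (log2 -0.90, SE 0.033, adjusted p = 1.40e-41) and 2.39-fold lower in WT (log2 -1.26, SE 0.035, adjusted p = 1.88e-50). Its relative CDC25C fell too (-0.68 in Y691F, -0.55 in WT).

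Among the mitotic kinases and the passenger complex, 6 of 7 fell in Y691F and all 7 in WT. BIRC5, which encodes survivin, a passenger subunit that places Aurora B on chromosomes (ENSG00000089685, chromosome 17, 78214186 to 78225636, plus strand), had 54.6, 56.4 and 57.5 CPM in Y691F with IgM, against 136, 135 and 139 CPM in Y691F untreated. In WT, BIRC5 had 51.1, 54.2 and 54.8 CPM with IgM, against 149, 147 and 145 CPM untreated. BIRC5 fell 2.44-fold in Y691F (log2 -1.29, SE 0.038, adjusted p = 1.04e-47) and 2.75-fold in WT (log2 -1.46, SE 0.039, adjusted p = 1.78e-51), with wide gaps between the groups. CDCA8, which encodes the passenger subunit borealin (ENSG00000134690, chromosome 1, 37692418 to 37709719, plus strand), had 78.5, 80.7 and 79.2 CPM in Y691F with IgM, against 147, 149 and 155 CPM in Y691F untreated. In WT, CDCA8 had 72.5, 75.2 and 71.9 CPM with IgM, against 157, 153 and 161 CPM untreated. It fell in both lines (Y691F log2 -0.92, SE 0.036, adjusted p = 3.39e-39, WT log2 -1.10, SE 0.037, adjusted p = 2.74e-44). The scaffold subunit gene INCENP fell as well (-0.54 in Y691F, -0.75 in WT). The kinase of the complex, encoded by AURKB, changed far less (-0.18, adjusted p = 9.57e-06 in Y691F, and -0.11, adjusted p = 0.00616 in WT), and its WT call was lost without replicate 1 of WT untreated (log2 -0.058, adjusted p = 0.170 in edgeR). The mRNAs of the 4 subunits of one complex changed by different amounts. NEK2, a centrosomal kinase gene, fell in both lines (log2 -1.07 in Y691F, -1.13 in WT).

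PLK1, the gene of Polo-like kinase 1 (ENSG00000166851, chromosome 16, 23677656 to 23690367, plus strand), had 309, 294 and 329 CPM in Y691F with IgM, against 371, 376 and 368 CPM in Y691F untreated. In WT, PLK1 had 279, 278 and 289.8 CPM with IgM, against 399.9, 399.8 and 387 CPM untreated. The IgM libraries lay below the untreated ones in both lines (Y691F log2 -0.26, SE 0.030, adjusted p = 1.42e-12, WT log2 -0.49, SE 0.031, adjusted p = 5.81e-26). AURKA, the gene of the spindle pole kinase Aurora A (ENSG00000087586, chromosome 20, 56369389 to 56392337, minus strand), had 102, 99.1 and 106 CPM in Y691F with IgM, against 96.2, 95.5 and 101 CPM in Y691F untreated. In WT, AURKA had 80.2, 82.3 and 83.8 CPM with IgM, against 106, 101 and 99.5 CPM untreated. Only in WT did the groups separate: AURKA fell there (log2 -0.32, SE 0.039, adjusted p = 7.04e-12), while in Y691F the groups overlapped and no change was called (log2 0.070, SE 0.037, adjusted p = 0.0851). With library totals the Y691F value was -0.10, called lower, so its direction in Y691F depends on the scaling.

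Of the genes of the spindle checkpoint, the APC/C and separase, 6 of 8 fell and 1 rose in Y691F, and 6 of 8 fell in WT. ESPL1 (separase), the checkpoint genes BUB1B, MAD2L1 and TTK and the APC/C ubiquitin-conjugating enzyme gene UBE2C fell in both lines. In Y691F these 5 lay between -0.64 (MAD2L1) and -0.32 (TTK), and in WT between -0.54 (ESPL1) and -0.41 (UBE2C). CDC20, the checkpoint's target and activator of the APC/C (ENSG00000117399, chromosome 1, 43358955 to 43363203, plus strand), had 298, 284 and 298 CPM in Y691F with IgM, against 246, 258 and 240.2 CPM in Y691F untreated. In WT, CDC20 had 253, 259 and 253 CPM with IgM, against 278, 281 and 280.4 CPM untreated. CDC20 rose with IgM in Y691F (log2 0.24, SE 0.030, adjusted p = 1.41e-11) and fell in WT (log2 -0.13, SE 0.030, adjusted p = 7.82e-05), with no overlap in either line. Both calls and both directions stood with library totals (0.073 in Y691F, -0.26 in WT). PTTG1, which encodes the separase inhibitor securin, was not called in either line (0.017 and -0.039), and with library totals it was called lower in both. BUB1, a checkpoint kinase gene, fell in Y691F (-0.13) and was not called in WT (-0.056, or -0.19 and called with library totals), with no call for the difference (-0.074). Its call in Y691F was lost without replicate 2 of Y691F with IgM (adjusted p = 0.107 in edgeR) or replicate 3 of Y691F untreated (adjusted p = 0.0648).

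Among the 12 genes of kinesins, spindle assembly and cytokinesis, 7 fell and 0 rose in Y691F, and 10 fell and 1 rose in WT. ANLN, which encodes anillin, a scaffold of the contractile ring (ENSG00000011426, chromosome 7, 36389806 to 36453791, plus strand), had 16.7, 15.6 and 15.8 CPM in Y691F with IgM, against 42.1, 40.5 and 42.8 CPM in Y691F untreated. In WT, ANLN had 12.3, 14.4 and 13.3 CPM with IgM, against 41.3, 44.9 and 38.6 CPM untreated. It showed the largest fall of the 42 genes in both lines, 2.61-fold in Y691F (log2 -1.38, SE 0.063, adjusted p = 1.25e-34) and 3.12-fold in WT (log2 -1.64, SE 0.067, adjusted p = 2.27e-38). HMMR, which encodes a microtubule-binding spindle protein (ENSG00000072571, chromosome 5, 163460203 to 163491945, plus strand), had 37.7, 35.6 and 42.1 CPM in Y691F with IgM, against 62.2, 66.2 and 70.5 CPM in Y691F untreated. In WT, HMMR had 37.5, 41.5 and 42.3 CPM with IgM, against 55.8, 60.5 and 55.8 CPM untreated. HMMR fell in both lines (Y691F log2 -0.79, SE 0.052, adjusted p = 1.18e-22, WT log2 -0.51, SE 0.053, adjusted p = 1.07e-13). The cytokinesis motor gene KIF20A (-0.52 in Y691F, -0.74 in WT) and the spindle-separating motor gene KIF11 (-0.42 and -0.48) fell, as did the midzone bundler gene PRC1 (-0.25 and -0.39) and DLGAP5, the gene of a spindle-stabilising protein (-0.36 and -0.28). TPX2, which encodes the activator of Aurora A, the gene of the microtubule-depolymerising motor KIF2C and that of the chromosome-bound motor KIF4A fell in WT (-0.26, -0.22 and -0.13) and were not called in Y691F (-0.058, -0.062 and 0.070). With library totals all 3 were called lower in Y691F (-0.23, -0.23 and -0.099). KIF14, a cytokinesis motor gene, fell in both (-0.16 and -0.13), though in Y691F its IgM and untreated libraries overlapped. The WT call was lost for KIF14 without replicate 2 of WT with IgM (adjusted p = 0.123 in edgeR) or replicate 3 of WT untreated (adjusted p = 0.134), and for KIF4A without replicate 2 of WT untreated (adjusted p = 0.124). KIF23, a motor gene of the central spindle, was not called in either (-0.073 and -0.085) and was called lower in both with library totals (-0.24 and -0.22). ECT2, the activator of the GTPase RhoA in cytokinesis (ENSG00000114346, chromosome 3, 172750682 to 172821474, plus strand), had 78.5, 75.6 and 79.2 CPM in Y691F with IgM, against 71.2, 73.9 and 81.1 CPM in Y691F untreated. In WT, ECT2 had 89.5, 87.1 and 87.7 CPM with IgM, against 83.4, 81.8 and 83.5 CPM untreated. ECT2 was called higher in WT (log2 0.088, SE 0.040, adjusted p = 0.0416), where the groups did not overlap, and not in Y691F (log2 0.045, SE 0.041, adjusted p = 0.319), where they did. The WT value turned to -0.046, not called, with library totals. The call was also lost without any 1 of the 3 WT libraries with IgM, replicate 2 or 3 of WT untreated, or replicate 1 or 2 of Y691F with IgM (adjusted p between 0.0521 and 0.139 in edgeR).

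Of the centromere and kinetochore genes, 3 of 5 fell in each line, 1 rose, and NDC80 was not called in either. CENPE, a kinetochore motor gene (-0.40 in Y691F, -0.35 in WT), NUF2 (-0.46 and -0.38) and CENPF, which encodes a large protein of the outer kinetochore (-0.14 and -0.20) were the genes that fell. NUF2 and NDC80 encode partners in one kinetochore complex, and NDC80 stood at 0.0081 and -0.035, or, with library totals, at -0.16 and -0.17, called lower in both. CENPA, which encodes the centromeric histone H3 variant (ENSG00000115163, chromosome 2, 26764289 to 26801067, plus strand), had 35.2, 35.8 and 34.5 CPM in Y691F with IgM, against 32.1, 32.00 and 32.4 CPM in Y691F untreated. In WT, CENPA had 30.8, 30.9 and 35.4 CPM with IgM, against 29.1, 26.1 and 26.6 CPM untreated. The IgM libraries were the higher ones in both lines (Y691F log2 0.13, SE 0.056, adjusted p = 0.0315, WT log2 0.25, SE 0.059, adjusted p = 1.31e-04). With library totals neither rise was called, and the Y691F value turned to -0.041. The Y691F call was lost without replicate 1 or 2 of Y691F with IgM, or replicate 1 or 2 of Y691F untreated (adjusted p between 0.0565 and 0.0872 in edgeR).

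The proliferation marks TOP2A and MKI67 and the transcription factor genes FOXM1 and MYBL2 all fell in both lines. TOP2A, which encodes DNA topoisomerase II alpha (ENSG00000131747, chromosome 17, 40388516 to 40417950, minus strand), had 261, 249 and 275 CPM in Y691F with IgM, against 376, 383 and 408 CPM in Y691F untreated. In WT, TOP2A had 270.2, 275 and 270.04 CPM with IgM, against 371, 399 and 392 CPM untreated. All IgM libraries lay below the untreated ones (Y691F log2 -0.57, SE 0.032, adjusted p = 1.73e-27, WT log2 -0.51, SE 0.032, adjusted p = 9.58e-25), and the difference between the lines was not called (log2 -0.061, SE 0.045, adjusted p = 0.351). MKI67, which encodes the Ki-67 protein that coats mitotic chromosomes (ENSG00000148773, chromosome 10, 128096659 to 128126385, minus strand), had 416, 407 and 433 CPM in Y691F with IgM, against 505, 526 and 505 CPM in Y691F untreated. In WT, MKI67 had 418, 433 and 420.4 CPM with IgM, against 520.1, 531 and 547 CPM untreated. The IgM libraries of MKI67 were again the lower ones in both lines (Y691F log2 -0.29, SE 0.029, adjusted p = 1.38e-15, WT log2 -0.33, SE 0.029, adjusted p = 3.94e-18). FOXM1, the forkhead activator of late cell cycle genes (ENSG00000111206, chromosome 12, 2857681 to 2877155, minus strand), had 131, 137 and 138 CPM in Y691F with IgM, against 217, 216 and 208 CPM in Y691F untreated. In WT, FOXM1 had 123, 129 and 128 CPM with IgM, against 237, 225 and 231 CPM untreated. MYBL2, the gene of B-MYB (ENSG00000101057, chromosome 20, 43667019 to 43716496, plus strand), had 517, 519.6 and 534 CPM in Y691F with IgM, against 796, 815 and 765 CPM in Y691F untreated. In WT, MYBL2 had 477, 489 and 495 CPM with IgM, against 819, 796 and 793 CPM untreated. FOXM1 (Y691F log2 -0.66, SE 0.033, adjusted p = 2.23e-32, WT log2 -0.87, SE 0.033, adjusted p = 3.28e-40) and MYBL2 (Y691F log2 -0.60, SE 0.028, adjusted p = 3.28e-34, WT log2 -0.72, SE 0.028, adjusted p = 9.00e-40) fell in both lines with no overlap between IgM and untreated libraries, and lay below the median change of the 42 genes.

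**Figure D3:**
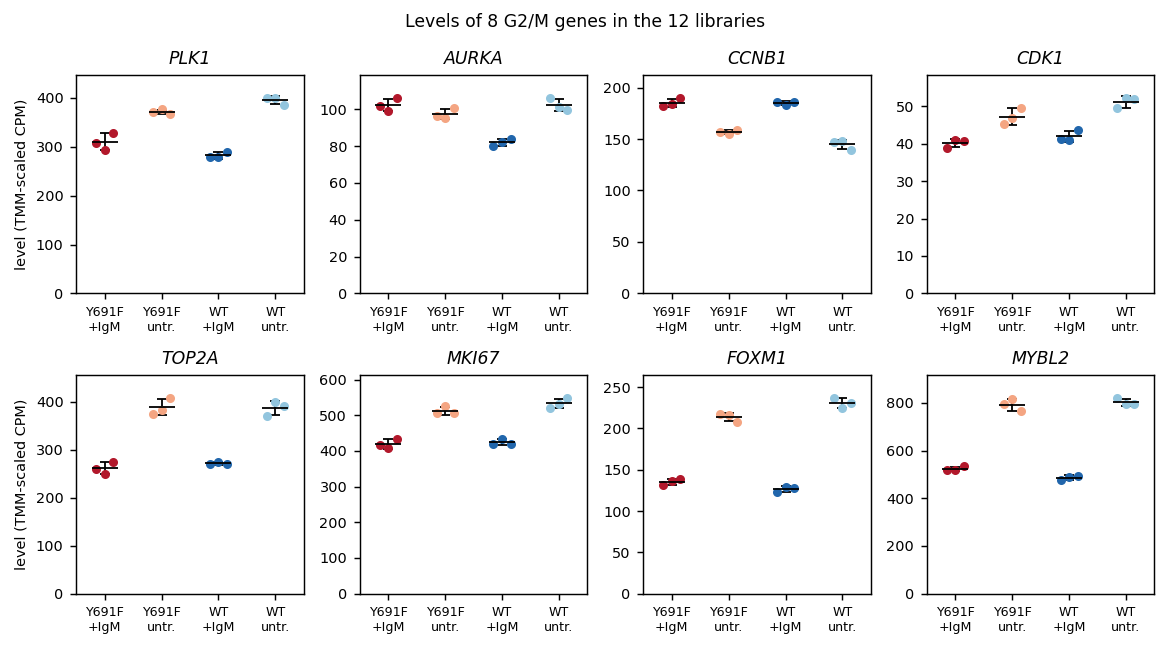
Levels in TMM-scaled CPM of 8 of the genes in each library (points), with group mean (line) and SD (bar, n = 3), for Y691F with IgM, Y691F untreated, WT with IgM and WT untreated. IgM libraries lie lower than untreated ones in 6 panels, CCNB1 shows the reverse, and AURKA is lower with IgM in WT only.

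Genes with and without the CHR core were mostly lower after IgM. Among the 25 genes with the CHR core, 19 fell and 2 rose in Y691F (median -0.36) and 21 fell and 2 rose in WT (median -0.39). Among the 11 with a promoter but without the core, 8 fell and 1 rose in each line, with medians of -0.25 in Y691F and -0.35 in WT. The core genes that rose were CENPA (core at -18) in both lines, CDC20 (-65) in Y691F and ECT2 (35, after the start) in WT. CCNB1, which rose in both, has no match in the promoter searched.

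**Figure D4:**
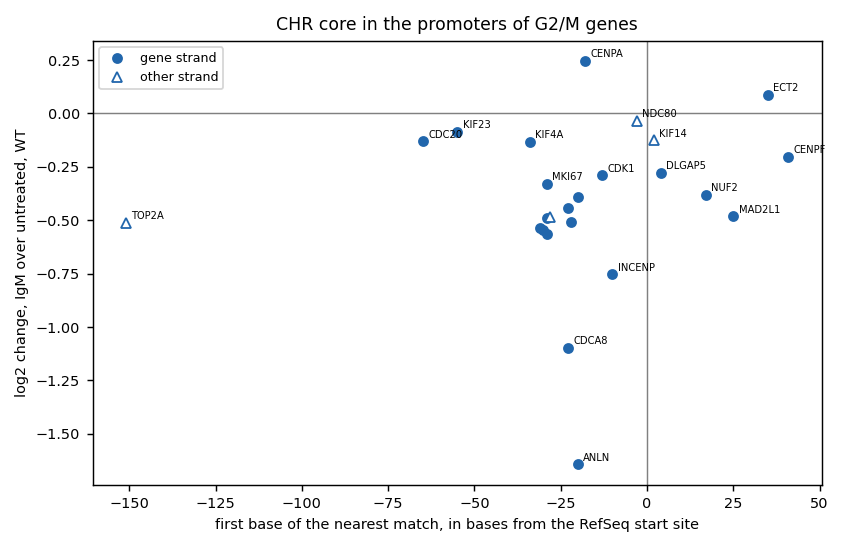
Position of the CHR core nearest to the RefSeq start site (horizontal axis, bases) against the log2 change with IgM over untreated in WT (vertical axis) for the 25 genes that hold it. Filled circles mark a core on the gene strand and open triangles one on the other strand. The unlabelled cluster holds PLK1, KIF11, ESPL1, CDC25C, CCNB2, HMMR, BUB1B and PRC1, and CENPA (first base at -18) stands above 0.

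The IgM responses of the lines were then compared directly, as the response in Y691F minus that in WT, which asks whether the lines differed in their response. For 16 of the 42 genes the difference was called positive and for 1, HMMR, negative, against 14.7% of all tested genes called positive, 11.0% called negative and 25.7% called in either direction. All 16 had fallen with IgM in WT. In Y691F 11 of them also fell, 4 were not called and CDC20 rose. The median difference over the 42 genes was 0.060, beside 0.0069 over all tested genes. With library totals 9 were positive and 4 negative, so the split depends on the scaling. The number of negative differences was 2 without replicate 2 of WT untreated, replicate 1 or 2 of Y691F untreated or replicate 3 of Y691F with IgM.

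AURKA showed the largest difference (log2 0.39, SE 0.054, adjusted p = 7.53e-09), with the levels given above. CDC20 (log2 0.37, SE 0.043, adjusted p = 1.09e-11) and CDC25B (log2 0.36, SE 0.048, adjusted p = 1.87e-09) followed, and CDC25B fell in both lines but less in Y691F. These 3 encode a spindle pole kinase, an activator of the APC/C and an activator of mitotic entry. Of the passenger complex, INCENP (0.22), CDCA8 (0.18) and BIRC5 (0.17) were positive and AURKB (-0.074) was not called. PLK1 (log2 0.23, SE 0.043, adjusted p = 1.51e-05), FOXM1 (log2 0.21, SE 0.047, adjusted p = 3.05e-04) and MYBL2 (log2 0.12, adjusted p = 0.0112) were positive, as were ANLN (0.26), KIF20A (0.22), KIF4A (0.20), TPX2 (0.20), KIF2C (0.16), PRC1 (0.14) and CCNA2 (0.12). HMMR fell more in Y691F than in WT (log2 -0.28, SE 0.074, adjusted p = 0.00235). No centromere or kinetochore gene of the 5 was called, their differences lying between -0.12 (CENPA) and 0.058 (CENPF), nor were TOP2A (-0.061) and MKI67 (0.038). Of the 17 called genes, 10 were called under each of the 19 alternatives tried: AURKA, CDC20, CDC25B, CDCA8, FOXM1, HMMR, INCENP, KIF20A, PLK1 and TPX2. ANLN, BIRC5, CCNA2, KIF2C, KIF4A, MYBL2 and PRC1 lost the call under at least 1 of them. Each lost it when a library was left out: replicate 1 of WT with IgM for ANLN, BIRC5, CCNA2 and PRC1, replicate 3 of WT with IgM for ANLN and CCNA2, and replicate 2 of WT untreated for ANLN, CCNA2 and KIF4A. Without replicate 1 of Y691F with IgM it was lost for ANLN and CCNA2, and without replicate 3 for CCNA2, KIF2C and KIF4A. Without replicate 1 of Y691F untreated it was lost for CCNA2, KIF2C and KIF4A, without replicate 2 for ANLN, and without replicate 3 for CCNA2 and MYBL2. The adjusted p in these fits of edgeR lay between 0.0532 (MYBL2) and 0.204 (CCNA2).

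Y691F cells were next set against WT cells, both with IgM. Of the 42 genes, 13 were higher and 7 lower in Y691F, against 21.9% of all tested genes called higher, 20.2% called lower and 42.1% called in either direction, so the share of calls is near the background. The median was 0.039, beside -0.0049 over all tested genes, and no gene differed by 2-fold. CDC25B was the most different, at 135 ± 2.68 CPM in Y691F with IgM and 93.3 ± 2.20 CPM in WT with IgM (SD, n = 3 each), 1.44-fold higher (log2 0.53, SE 0.037, adjusted p = 1.36e-22). Under IgM AURKA averaged 102 ± 3.46 CPM in the Y691F line and 82.1 ± 1.83 CPM in the WT line (log2 0.32, SE 0.039, adjusted p = 6.31e-11). CDC20 averaged 293 ± 8.20 CPM in the Y691F line and 255 ± 3.56 CPM in the WT line (log2 0.20, SE 0.030, adjusted p = 4.17e-08). ANLN (0.26), KIF20A (0.20), KIF4A (0.20), KIF2C (0.14), TTK (0.19), PLK1 (0.14), INCENP (0.13), CDCA8 (0.12), MYBL2 (0.11) and FOXM1 (0.095) were the other genes that were higher. The calls of ANLN and FOXM1 were lost without replicate 1 of WT with IgM (adjusted p = 0.0533 and 0.0995 in edgeR), FOXM1 also without replicate 3 of Y691F with IgM, and TTK without replicate 1 of Y691F with IgM (adjusted p = 0.0554).

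Of the 7 genes lower in Y691F with IgM, 4 were of the 8 checkpoint, APC/C and separase genes, among which CDC20 and TTK were higher and UBE2C and ESPL1 were not called. BUB1B, which encodes the checkpoint protein BubR1 (ENSG00000156970, chromosome 15, 40161023 to 40221136, plus strand), had 101, 105 and 109 CPM in Y691F with IgM, against 127, 123 and 122 CPM in WT with IgM (log2 -0.24, SE 0.037, adjusted p = 3.85e-08). MAD2L1, the gene of the checkpoint inhibitor MAD2 (ENSG00000164109, chromosome 4, 120055608 to 120067074, minus strand), had 34.7, 32.02 and 33.8 CPM in Y691F with IgM, against 41.1, 42.9 and 39.02 CPM in WT with IgM (log2 -0.29, SE 0.053, adjusted p = 2.69e-06). The libraries of the lines did not overlap for either gene. AURKB (ENSG00000178999, chromosome 17, 8204733 to 8210600, minus strand) had 99.9, 102 and 103 CPM in Y691F with IgM, against 116, 118 and 117 CPM in WT with IgM (log2 -0.20, SE 0.037, adjusted p = 5.11e-06), so AURKA and AURKB differed between the lines in opposite directions. PTTG1 (-0.17), BUB1 (-0.12), NUF2 (-0.23) and ECT2 (-0.18) were lower as well. The call of BUB1 was lost without replicate 2 or 3 of WT with IgM or replicate 1 or 2 of Y691F with IgM, and that of NUF2 without replicate 2 of WT with IgM (adjusted p = 0.110 in edgeR).

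**Figure D5:**
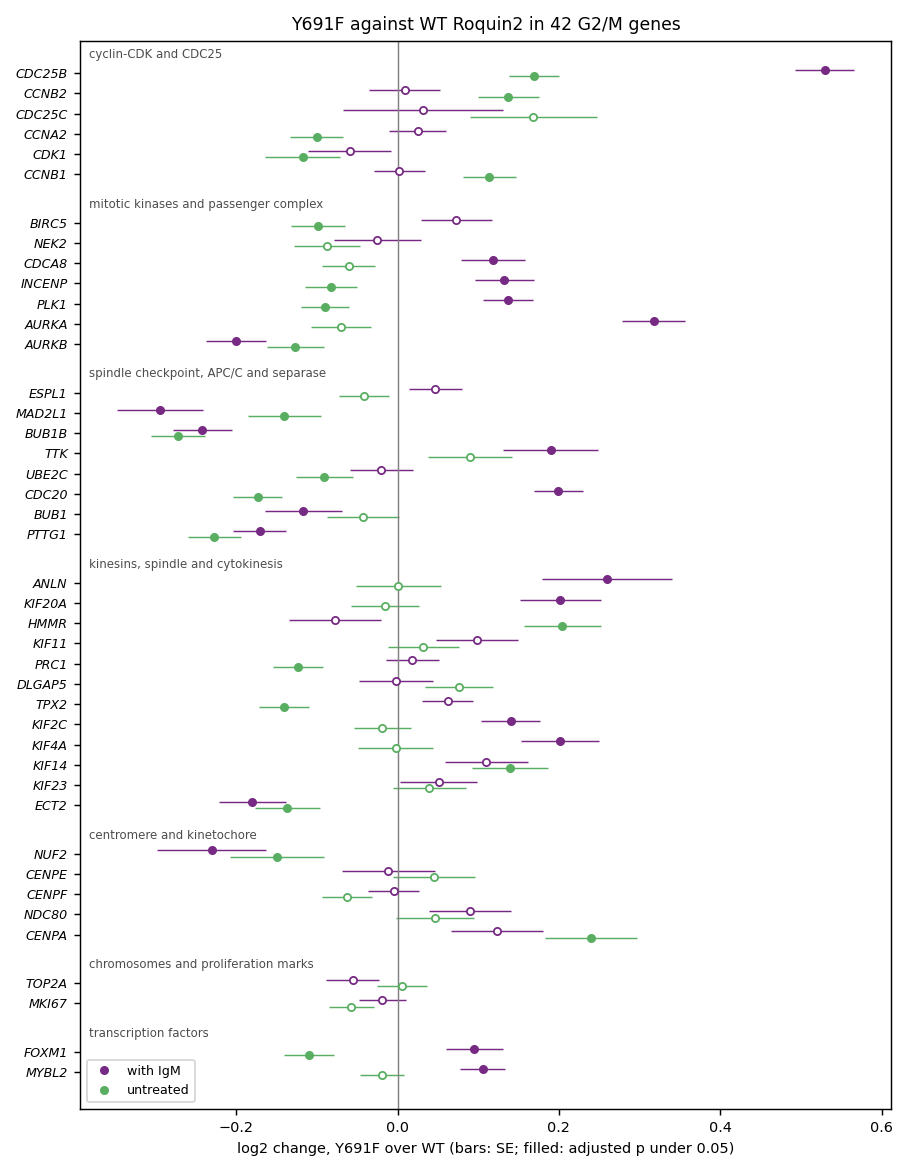
Log2 difference of Y691F over WT for each of the 42 genes, ordered by role, with IgM (purple) and untreated (green). Points are fitted differences, bars their SE, and filled points passed an adjusted p of 0.05. CDC25B with IgM stands farthest right, and BUB1B, MAD2L1, PTTG1, AURKB, ECT2 and NUF2 lie left of 0 in both conditions.

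Without IgM, differences between the lines lay between -0.27 and 0.24 on the log2 scale. Of the 42 genes, 6 were higher and 16 lower in untreated Y691F, against 15.1% of all tested genes called higher, 16.1% called lower and 31.2% called in either direction. The median was -0.050, beside -0.0078 over all tested genes. With at least 5 CPM in 3 libraries, 7 of the 42 were higher and 10 lower, beside 2241 higher and 1894 lower of 10653 genes. The share of calls among the 42 was then near that over all genes. The number of lower genes was 10 without replicate 2 of WT untreated and 8 without replicate 1 of Y691F untreated. It stayed at 16 only without replicate 3 of Y691F untreated and was smaller when any other library was left out. At least 1 library decided the call of 12 genes: AURKB, BIRC5, CCNA2, CCNB1, CDK1, ECT2, INCENP, KIF14, MAD2L1, NUF2, PLK1 and UBE2C. BUB1B showed the most negative difference, with 137, 136 and 146 CPM in untreated Y691F, against 165, 170.5 and 170.00 CPM in untreated WT (log2 -0.27, SE 0.034, adjusted p = 9.60e-11). PTTG1 (ENSG00000164611, chromosome 5, 160421822 to 160428744, plus strand) had 155, 166 and 155 CPM in untreated Y691F, against 182, 191 and 183 CPM in untreated WT (log2 -0.23, SE 0.032, adjusted p = 1.15e-08). In each case the 3 Y691F libraries were all below the 3 WT libraries. CDC20 was lower in untreated Y691F (log2 -0.17, SE 0.030, adjusted p = 1.37e-06), the reverse of its place with IgM. Higher in untreated Y691F were CENPA (log2 0.24, SE 0.057, adjusted p = 4.69e-04), HMMR (log2 0.20, SE 0.047, adjusted p = 3.89e-04), CDC25B (log2 0.17, SE 0.031, adjusted p = 5.29e-06), CCNB1 (0.11), CCNB2 (0.14) and KIF14 (0.14). BUB1B, PTTG1, MAD2L1, AURKB, ECT2 and NUF2 were called lower in Y691F under both conditions, and CDC25B was called higher under both. FOXM1 and PLK1 were lower in untreated Y691F (-0.11 and -0.090) and higher with IgM, as were CDC20 and INCENP. The untreated call of INCENP was at the threshold. It was lost when any WT library, or replicate 1 or 2 of either Y691F group, was left out (adjusted p between 0.0559 and 0.154 in edgeR). With library totals it was lost too (-0.064, adjusted p = 0.120), as was the call of FOXM1 with IgM (0.079, adjusted p = 0.0551).

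Genes of the cell cycle on 6 other lists, chosen by function, were compared in the same way. More genes fell than rose on each list in either line, by margins that differed between lists. Of all tested genes, 38.7% were called lower and 37.1% higher in Y691F, and 38.5% lower and 38.4% higher in WT. Of 46 tested further G2/M genes, 35 fell and 6 rose in Y691F (median -0.23), and 37 fell and 4 rose in WT (median -0.34). The kinetochore genes ZWINT and SPC24 had larger falls than any of the 42: ZWINT stood at 32.5 ± 1.44 CPM in Y691F with IgM and 119 ± 2.62 CPM in Y691F untreated (log2 -1.87, SE 0.044, adjusted p = 1.10e-55), and SPC24 fell in both lines (log2 -1.80 in Y691F, -1.74 in WT). CKS2, which encodes a subunit that binds CDK1, rose like CCNB1 (0.50 in Y691F, 0.58 in WT). Of the 8 condensin genes, 6 fell and 1 rose in Y691F, and 7 fell and 1 rose in WT. NCAPD2 was among those that fell (log2 -0.80 in Y691F, -0.88 in WT). Of the 28 genes of G1/S and replication, 25 fell in each line, with medians of -0.55 in Y691F and -0.51 in WT, and FEN1, a flap endonuclease gene, rose (0.80 and 0.78).

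Among regulators of these promoters, E2F2 stood at 43.4 ± 2.56 CPM in Y691F with IgM and 182 ± 6.59 CPM in Y691F untreated (log2 -2.07, SE 0.040, adjusted p = 1.27e-61). In WT it stood at 30.6 ± 0.730 CPM with IgM and 178 ± 4.61 CPM untreated (log2 -2.54, SE 0.043, adjusted p = 3.37e-66), and E2F1 fell too (log2 -0.85 in Y691F, -1.19 in WT). The repressor genes E2F4 (0.42 in Y691F, 0.47 in WT) and E2F7 (0.80 and 0.52) rose. The MuvB, DREAM and E2F list counted 13 falls and 5 rises of 20 in Y691F, and 11 falls and 5 rises in WT. Of the 17 APC/C core genes, 9 fell and 4 rose in Y691F, and 10 fell and 5 rose in WT, with UBE2S, an enzyme that extends ubiquitin chains for the APC/C, highest among the rises (0.78 in Y691F, 0.60 in WT). The APC/C core genes summed to 1371, 1345 and 1363 CPM in Y691F with IgM, against 1249, 1276 and 1232 CPM in Y691F untreated. In WT they summed to 1340.0, 1336 and 1349.6 CPM with IgM, against 1314, 1305 and 1284 CPM untreated. On the TMM scale the IgM sums were thus the higher ones in both lines. The median change of the list was negative, at -0.12 in Y691F and -0.19 in WT. The sums were neither tested nor taken with library totals, which lower the IgM libraries against the untreated ones.

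The brakes on mitotic entry did not move as one: of 12 tested, 7 fell and 5 rose in Y691F, and 6 fell and 4 rose in WT. With so few genes, the WT counts are close to the shares over all tested genes (38.5% lower, 38.4% higher). Their summed level was higher with IgM, at 1643, 1641 and 1590.0 CPM in Y691F with IgM, against 1188, 1168 and 1172 CPM in Y691F untreated. In WT the sum was 1902, 1844 and 1910 CPM with IgM, against 1158, 1157 and 1135 CPM untreated. SFN, a gene that restrains mitotic entry, was low throughout, at 1.25 ± 0.150 CPM in Y691F with IgM and 3.499 ± 0.0420 CPM in Y691F untreated (log2 -1.47). In WT SFN stood at 0.377 ± 0.105 CPM with IgM and 2.88 ± 0.389 CPM untreated (log2 -2.94). The difference of its responses (log2 1.47, SE 0.38, adjusted p = 0.00155) and its Y691F over WT value with IgM (log2 1.74, SE 0.34, adjusted p = 1.16e-05) were the largest of the brakes, at these low levels. CDKN1A, the gene of the CDK inhibitor p21, stood at 183 ± 2.23 CPM in Y691F with IgM and 92.3 ± 1.86 CPM in Y691F untreated (log2 0.98, SE 0.035, adjusted p = 2.28e-42). In WT it stood at 146 ± 6.65 CPM with IgM and 94.2 ± 1.89 CPM untreated (log2 0.63, SE 0.036, adjusted p = 1.07e-28). The antiproliferative gene BTG2 rose more in WT (1.67) than in Y691F (1.08; difference log2 -0.59, SE 0.040, adjusted p = 1.58e-22). PKMYT1 and WEE1, the kinases that inhibit CDK1, were lower in Y691F than in WT with IgM (log2 -0.39, adjusted p = 6.21e-15 for PKMYT1 and log2 -0.30, adjusted p = 1.20e-12 for WEE1). CDKN1A was higher in Y691F than in WT with IgM (log2 0.32, adjusted p = 1.51e-13).

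Some of the 42 genes have near-identical copies that can share their reads. The counts of these copies were low: at most 34 for KIF4B, 3 for PTTG2, 9 for PTTG3P, 8 for AURKAPS1 and 223 for CDC20P1 in any library. CDC20 itself had at least 3971 counts in each library. Because no counter was named, these counts cannot show whether shared reads were dropped or given to one of the copies.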

How the data were processed

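Strand-specific polyA+ RNA-seq libraries (dUTP method, per the labels' protocols) were made from 4 groups of 3 libraries, which the submitters call independent biological replicates. Whether they came from separate lines is not stated there, and p-values measure the spread between these libraries. That spread was small, with a common biological coefficient of variation of 2.51% beyond counting noise, so small changes could be called. The table deposited by the authors gives whole-number read counts and RPKM for each gene. STAR 2.5.0b, DESeq2 and GRCh38 are named in the submitters' processing notes, and no counter, strand setting or gene annotation was named in the sources used here. The deposited RPKM values were used only to order genes by level.

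Counts were filtered with filterByExpr, scaled with TMM and tested with the quasi-likelihood test of edgeR 4.0.16 (R 4.3.3, robust fitting), with 1 coefficient per group over all 12 libraries and no covariate. P-values are 2-sided and adjusted by Benjamini-Hochberg over all 15112 tested genes in each comparison. The SE is the size of the log2 change over the square root of F. The procedure was tested on simulated counts in which 200 genes changed in 1 group, with as many rises as falls. Far more genes were called with IgM, so the simulation does not test the scaling behind the IgM responses. Alternatives were DESeq2 1.42.0 (size factors, and its Wald test), library totals, 2 other filters (none, and 5 CPM in 3 libraries), limma 3.58.1 (voom), the replicate number as a block, and leaving out each library. Every member could be named, and values in every library are given for 8 genes set by name and for the 3 with the smallest adjusted p per direction and comparison, and ANLN, added after its values were seen. Up to 3 genes per direction were named from other lists by the same measure. The members and the lists were chosen with earlier results of these data known. Motifs were matched as exact letters in RefSeq promoters. One gene of the marker lists is not reported here, and the sums were taken without it.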

Additional observations from a re-analysis of the deposited data

Results flagged for a closer look

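The IgM response differed between Y691F and WT, by the test of the difference itself, for 17 of the 42 genes. The differences (Y691F minus WT, log2) were 0.39 for AURKA, 0.37 for CDC20, 0.36 for CDC25B, 0.26 for ANLN, 0.23 for PLK1, 0.22 for KIF20A, 0.22 for INCENP and 0.21 for FOXM1. They were 0.20 for KIF4A, 0.20 for TPX2, 0.18 for CDCA8, 0.17 for BIRC5, 0.16 for KIF2C, 0.14 for PRC1, 0.12 for MYBL2 and 0.12 for CCNA2. HMMR alone among the called genes had a negative difference, -0.28, but with library totals 4 genes were called negative and 9 positive. CDC20 was the gene called in opposite directions in the lines, higher with IgM in Y691F (0.24) and lower with IgM in WT (-0.13).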

How the results depend on the processing

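The 42 genes in 5 comparisons gave 210 results, each computed under 19 alternatives. Of the 3990 values, 3795 were counted as unchanged. They kept a call and its direction, or were called in neither the main fit nor the alternative, whatever their direction. A further 142 lost the call and 46 gained one. The remaining 7 were called in at least 1 of the fits and turned round, all 7 with library totals. These were, for IgM in Y691F, AURKA at -0.10, CENPA at -0.041, ECT2 at -0.13, KIF4A at -0.099, NDC80 at -0.16 and PTTG1 at -0.15, and, for IgM in WT, ECT2 at -0.046. Library totals lower the median IgM response of all genes in both lines. With library totals, 1 gene rose with IgM in WT in place of 3, and the difference of responses was positive for 9 genes in place of 16 and negative for 4 in place of 1. With at least 5 CPM in 3 libraries, 2 differences were negative and 10 genes were lower in untreated Y691F in place of 16. The number lower in untreated Y691F was 11 with library totals, 11 with no filter on low counts and 12 with the DESeq2 Wald test. It was 16 with DESeq2 size factors, with limma-voom and with the replicate block. The cause was not tested. Leaving out 1 library gave 30 to 33 falls and 2 to 5 rises with IgM in Y691F, and 34 to 35 falls and 2 to 3 rises in WT. It gave 12 to 16 positive and 1 to 2 negative differences, and 11 to 16 genes higher and 5 to 8 lower in Y691F with IgM. In untreated cells it gave 5 to 7 higher and 8 to 16 lower. Same-numbered libraries did not deviate together over all genes (r between -0.015 and 0.030 over 12 pairs). Pairs with different numbers gave r between -0.039 and 0.039 over 24 pairs. Whether libraries with the same number were handled together was not tested. With the replicate block, 31 genes fell and 3 rose with IgM in Y691F, 35 fell and 3 rose in WT, and the block changed none of the 210 calls. The 3 libraries per group limit the precision, and lowly counted genes such as CDC25C have the widest errors.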
